A study of Mus musculus with 10 samples.

Results

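The genes described here are 10 genes for the breakdown of the branched-chain amino acids leucine, isoleucine and valine: Bckdha, Bckdhb, Dbt, Bckdk, Ivd, Mccc1, Mccc2, Hibadh, Pcca and Pccb. They were picked by name from the 55401 genes of a mouse liver RNA-seq table, because earlier results of these data had shown the pathway tending higher in NIKhKO than in NIKflox livers. The levels that chose them, NIKhKO against NIKflox, are therefore given as a description and were not tested. All 10 passed the filter on low values, a mean of at least 0.5 FPKM over the 10 libraries. With the targeted gene Map3k14, kept although at 0.494 FPKM, 12731 genes were tested. FPKM divides a gene's fragments by its length and by the size of the library.

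Livers of 5 mice labelled NIKhKO and 5 labelled NIKflox were profiled, and both genotypes had received the same Lieber-DeCarli diet, a liquid diet, with 5% ethanol over 4 weeks. NIK is the NF-kB inducing kinase, encoded by Map3k14; the design text writes the genotypes as NIKHKO and NIKF/F, hKO is not spelled out, and the title names hepatic NIK. The Cre driver, the part of the gene removed, and the sex, age and strain of the mice are not given in the sources used here, and no group without ethanol was analysed here. Whether mice of 1 genotype came from different litters is not stated, so a p-value below reflects the spread among these 10 samples alone.

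Branched-chain amino acids are first transaminated to branched-chain keto acids, a step that is weak in liver parenchyma and strong in muscle and fat. The liver is rich in the next enzyme, the branched-chain keto acid dehydrogenase complex, which commits the keto acids to oxidation; a dedicated kinase turns it off and a phosphatase turns it on. Leucine then passes through isovaleryl-CoA and methylcrotonyl-CoA to ketone bodies and acetyl-CoA, valine through 3-hydroxyisobutyrate to propionyl-CoA, and isoleucine to acetyl-CoA and propionyl-CoA.

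Map3k14 itself was at 0.347, 0.361, 0.443, 0.389 and 0.373 FPKM in NIKhKO libraries 1 to 5, against 0.553, 0.51, 0.585, 0.899 and 0.483 FPKM in NIKflox libraries 1 to 5. Every NIKhKO library was below every NIKflox library, in the direction of the labels, with a log2 fold change of -0.59 (SE 0.19) that did not pass (edgeR's quasi-likelihood test, adjusted p = 0.33). Total estimated counts were 53225028 to 64321202 in NIKhKO and 47161869 to 65052525 in NIKflox libraries. The same test called 3 of the 12731 genes, 0.0236%, at an adjusted p below 0.05. Of these, 2 (0.0157%) were higher and 1 (0.00785%) lower in NIKhKO. Hepatocyte markers summed to 41300 to 48400 FPKM in NIKhKO and 37800 to 52200 FPKM in NIKflox libraries, with 4 of 8 positive and 4 negative in log2 fold change. Cholangiocyte markers summed to 15.8 to 26.9 FPKM in NIKhKO and 26.1 to 46.2 FPKM in NIKflox, stellate cell and fibroblast markers to 33.7 to 49.1 FPKM in NIKhKO and 40.9 to 85.4 FPKM in NIKflox, and all 10 tested genes of these lists had negative log2 fold changes. Of the B and T cell list, which summed to 4.39 to 10.9 FPKM in NIKhKO and 3.06 to 6.42 FPKM in NIKflox, the 3 tested genes, all B cell genes (Cd79a, Cd79b and Ighm), were positive. The T cell genes Cd3e and Cd3g were under the filter, at 0.0711 ± 0.0330 and 0.160 ± 0.0125 FPKM in NIKhKO, against 0.0921 ± 0.0283 and 0.251 ± 0.0319 FPKM in NIKflox. Endothelial markers summed to 25.2 to 41.6 FPKM in NIKhKO and 34.2 to 45.3 FPKM in NIKflox, with 4 of 5 negative. Kupffer cell and macrophage markers summed to 56.5 to 85.6 FPKM in NIKhKO and 52.7 to 90.5 FPKM in NIKflox, with 4 of 5 positive. Muscle and heart markers summed to 0.0189 to 0.865 FPKM in NIKhKO libraries, against 1.33, 14.1, 0.093, 26.1 and 0.197 FPKM in NIKflox libraries 1 to 5. Adipose markers summed to 3.17 to 4.18 FPKM in NIKhKO libraries, against 3.32, 13.7, 3.35, 3.81 and 3.25 FPKM in NIKflox libraries 1 to 5. The highest genes of a list weigh most in these sums. Of the cholangiocyte list, Spp1 alone averaged 19.2 FPKM in NIKhKO and 31.6 FPKM in NIKflox. Of the hepatocyte list, Alb alone averaged 30700 FPKM in NIKhKO and 31800 FPKM in NIKflox. In bulk liver RNA, fewer cells of a type and less RNA per cell cannot be told apart. The part of these other cells in the values below was not tested, beyond the values without NIKflox 2 and 4 given beside them.

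The start regions of 9 of the 10 genes were found in the RefSeq promoter table of GRCm38.p6, as 11 windows of 250 bases before to 50 after a gene's start, since Bckdhb and Pcca have more than 1. The second window of Bckdhb, at 83948531 to 83948830, lies inside the gene. The first window of Pcca, at 122484115 to 122484414, lies wholly before the gene start used here, 122534324. Both are counted among the 11. The unmatched gene was Dbt. The windows were searched on both strands for CCAAT, the CCAAT box, which reads ATTGG on the other strand. It was present in 9 of the 11 windows and in 7 of the 9 genes, against 37.4% of all 32851 windows and 37.7% of the 11233 windows of genes tested. Ivd held 4 matches, Mccc1 and Mccc2 held 3 each, the windows of Bckdhb held 2 and 1, those of Pcca 1 each, Hibadh and Bckdk 1 each, and Bckdha and Pccb 0. The windows printed are those of the leucine branch enzymes, Ivd and the subunits Mccc1 and Mccc2 of the enzyme after it, followed by Bckdk, the kinase gene, and Bckdha, the gene of the subunit that the kinase acts on. Each is written 5′ to 3′ on the gene's strand, and capitals mark CCAAT or ATTGG; in Mccc2 the letters CCAATTGG hold both readings, overlapping.
Ivd, chr2:118861744-118862043, plus strand: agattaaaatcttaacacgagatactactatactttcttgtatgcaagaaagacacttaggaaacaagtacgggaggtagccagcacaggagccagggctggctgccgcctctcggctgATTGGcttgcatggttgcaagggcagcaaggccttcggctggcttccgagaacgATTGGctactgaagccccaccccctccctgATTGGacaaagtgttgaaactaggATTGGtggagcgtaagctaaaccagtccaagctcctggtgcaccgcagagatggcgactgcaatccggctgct
Mccc1, chr3:36000629-36000928, minus strand: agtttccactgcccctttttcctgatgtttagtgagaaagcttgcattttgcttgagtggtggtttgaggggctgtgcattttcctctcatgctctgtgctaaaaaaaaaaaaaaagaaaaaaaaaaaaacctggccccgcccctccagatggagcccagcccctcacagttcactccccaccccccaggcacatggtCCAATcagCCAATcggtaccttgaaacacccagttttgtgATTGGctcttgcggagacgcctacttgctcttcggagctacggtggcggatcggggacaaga
Mccc2, chr13:100015590-100015889, minus strand: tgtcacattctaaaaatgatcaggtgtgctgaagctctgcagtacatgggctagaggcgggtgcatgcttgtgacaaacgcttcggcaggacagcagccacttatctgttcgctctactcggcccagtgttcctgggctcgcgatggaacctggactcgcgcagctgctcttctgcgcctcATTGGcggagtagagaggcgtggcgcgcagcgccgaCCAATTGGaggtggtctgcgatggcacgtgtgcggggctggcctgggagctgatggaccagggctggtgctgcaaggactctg
Bckdk, chr7:127903823-127904122, plus strand: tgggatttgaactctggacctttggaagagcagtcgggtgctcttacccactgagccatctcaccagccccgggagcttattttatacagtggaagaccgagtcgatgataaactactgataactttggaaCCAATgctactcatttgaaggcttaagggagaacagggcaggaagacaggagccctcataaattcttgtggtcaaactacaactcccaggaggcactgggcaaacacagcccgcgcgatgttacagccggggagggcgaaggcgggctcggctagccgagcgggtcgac
Bckdha, chr7:25658712-25659011, minus strand: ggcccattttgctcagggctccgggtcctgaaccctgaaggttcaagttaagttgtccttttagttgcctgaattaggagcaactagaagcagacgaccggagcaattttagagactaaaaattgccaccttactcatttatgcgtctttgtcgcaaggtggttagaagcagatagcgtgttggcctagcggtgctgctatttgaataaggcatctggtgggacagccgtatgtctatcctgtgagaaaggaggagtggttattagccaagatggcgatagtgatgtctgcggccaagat

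The GC box GGGCGG was present in 4 of the 11 windows (of Bckdhb, Hibadh, Mccc1 and Pcca), against 35.7% of all windows and 61.3% of those of genes tested. AGGTCA, a nuclear receptor motif, was also present in 4 of the 11 (of Bckdhb, Hibadh and Pcca), against 16.3% and 13.3%. The Pcca window that lies before the gene is among these 4. CACGTG was found in Mccc2 alone and TATAAA in Bckdk alone, against 10.1% and 7.83% of the windows of genes tested. Neither the NRF1 motif nor CAAAGTCCA, an HNF4 motif, was found in any member window. A match describes letters in a window and is not a measured site.

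Of the 10 genes, 9 had a positive and 1, Bckdk, a negative log2 fold change of NIKhKO over NIKflox, with a median of 0.26, when fitted to the estimated counts. Over all genes tested 48.2% were positive, 51.8% were negative and the median was -0.01. Nothing is read from this contrast, which chose the genes. Ivd was the only member in which every NIKhKO library lay above every NIKflox library, an arrangement found in 77 genes, 0.605% of those tested. The reverse arrangement, found in 1.59% of genes, was seen in 0 members. The other 9 had ranges that overlapped between genotypes. Pcca, with the smallest positive log2 fold change (0.15, SE 0.09), had no NIKhKO library above the highest NIKflox library. The rule had no threshold on the values, so that no gene was just inside or outside it.

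**Figure D1:**
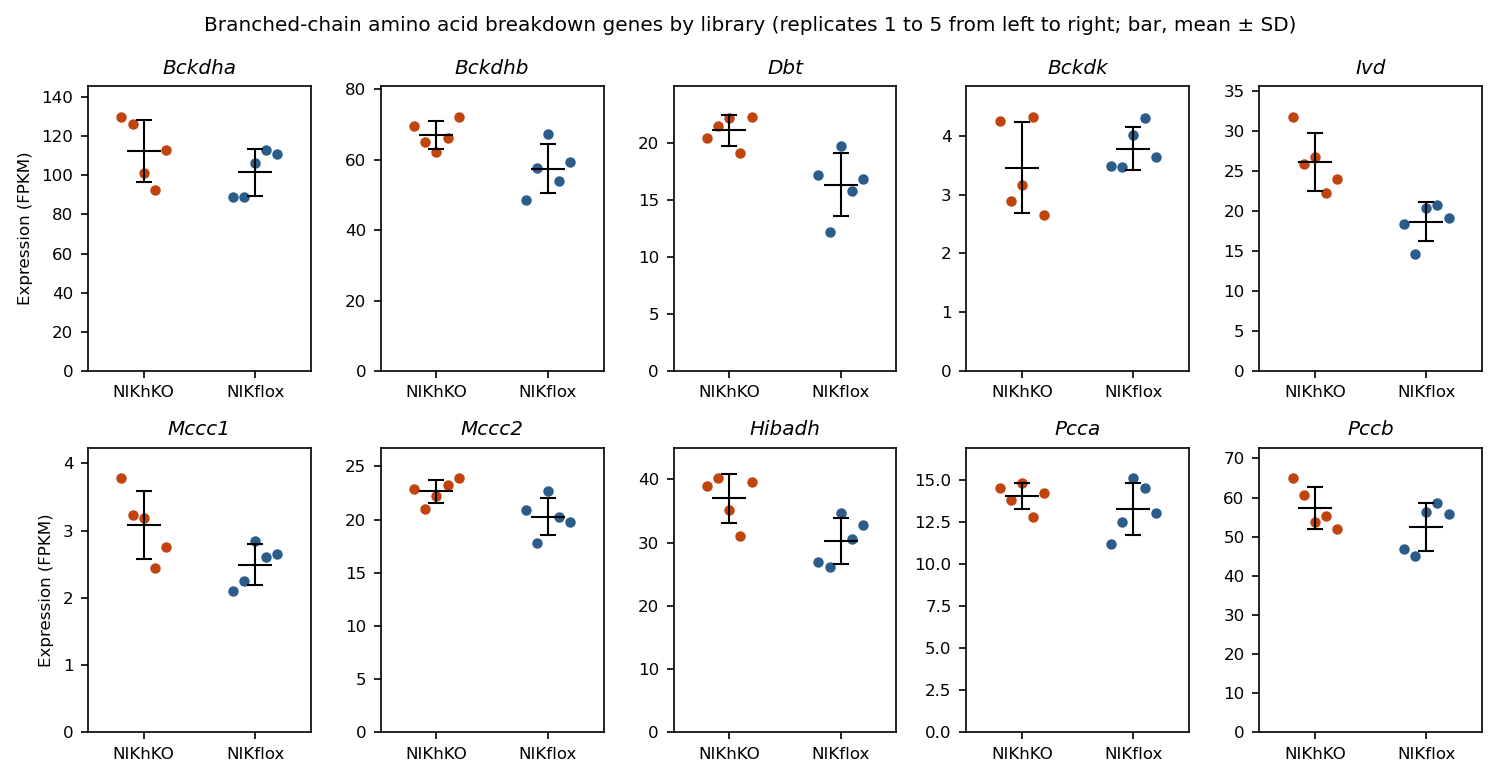
Expression in FPKM of the 10 genes in each liver library, with NIKhKO on the left and NIKflox on the right of each panel; points are libraries 1 to 5 from left to right and bars the mean ± SD. Ivd is the only panel in which the genotypes do not overlap, and Bckdk the only one with a lower NIKhKO mean.

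The dehydrogenase complex is built from a decarboxylase (Bckdha and Bckdhb, its alpha and beta subunits), a transacylase core (Dbt) and a dihydrolipoamide dehydrogenase (Dld) that it shares with other complexes. Positions are the table's, read as GRCm38. Bckdha, on chromosome 7 at 25629946 to 25658981 (minus strand), was at 130, 126, 101, 92.7 and 113 FPKM in NIKhKO libraries 1 to 5, against 88.7, 88.8, 106, 113 and 111 FPKM in NIKflox libraries 1 to 5. The genotypes overlapped widely, with NIKhKO 1 and 2 above all others and NIKhKO 4 below 3 of the NIKflox libraries. Its mean was 112 ± 15.9 FPKM in NIKhKO and 102 ± 11.9 FPKM in NIKflox (SD, n = 5 each), and the log2 fold change was 0.21 (SE 0.10). Bckdhb, on chromosome 9 at 83925145 to 84124240 (plus strand), was at 69.6, 65.1, 62.2, 66.3 and 72.3 FPKM in NIKhKO, against 48.7, 57.6, 67.4, 54.0 and 59.5 FPKM in NIKflox. All 5 NIKhKO libraries were above the NIKflox median, and only NIKflox 3 reached into their range. Its means were 67.1 ± 3.93 FPKM in NIKhKO and 57.5 ± 6.94 FPKM in NIKflox, with a log2 fold change of 0.29 (SE 0.09).

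Dbt, the transacylase gene on chromosome 3 at 116513070 to 116549981 (plus strand), had the largest log2 fold change of the complex. It was at 20.4, 21.5, 22.2, 19.1 and 22.3 FPKM in NIKhKO, against 17.2, 12.2, 19.7, 15.8 and 16.8 FPKM in NIKflox libraries. NIKflox 2 stood lowest and only NIKflox 3 was above a NIKhKO library, namely NIKhKO 4. The means were 21.1 ± 1.34 FPKM in NIKhKO and 16.3 ± 2.73 FPKM in NIKflox, and the log2 fold change was 0.44 (SE 0.12). Without NIKflox 2 and 4, the libraries with heart transcripts, it was 0.29, the largest shift of a member under that alternative. Dbt overlaps Gm4596 (mean 2.11 FPKM) on the other strand, and no source used here states whether reads were counted by strand.

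Bckdk, the kinase that phosphorylates the decarboxylase and turns the complex off, was at 4.26, 2.9, 3.16, 4.33 and 2.66 FPKM in NIKhKO, against 3.49, 3.47, 4.01, 4.3 and 3.64 FPKM in NIKflox libraries. It lies on chromosome 7 at 127904082 to 127910221 (plus strand). The NIKhKO libraries lay on both sides of the NIKflox range, with NIKhKO 2, 3 and 5 below it and NIKhKO 4 above it. Its mean was 3.46 ± 0.783 FPKM in NIKhKO and 3.78 ± 0.363 FPKM in NIKflox, and the log2 fold change was -0.06 (SE 0.15), with a sign that turned without NIKhKO 2 or without NIKhKO 5 (-0.16 to 0.02 with 1 library left out). Ppm1k, the phosphatase that turns the complex on, was at 11.3, 12.5, 6.87, 8.45 and 11.8 FPKM in NIKhKO, against 8.22, 11.6, 7.39, 5.91 and 6.78 FPKM in NIKflox. Its log2 fold change of 0.40 (SE 0.21) did not pass (edgeR, adjusted p = 0.57). Dld had a narrower spread, 29.0 ± 1.55 FPKM in NIKhKO and 28.4 ± 2.34 FPKM in NIKflox, and also did not pass (log2 fold change 0.09, SE 0.07, edgeR adjusted p = 0.74).

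In the leucine branch, Ivd encodes isovaleryl-CoA dehydrogenase, which passes electrons to the electron transfer flavoprotein. It was at 31.8, 25.9, 26.7, 22.3 and 24.0 FPKM in NIKhKO, against 18.4, 14.6, 20.4, 20.7 and 19.1 FPKM in NIKflox libraries. The lowest NIKhKO library, at 22.3 FPKM, was above the highest NIKflox library, at 20.7 FPKM. The means were 26.1 ± 3.59 FPKM in NIKhKO and 18.6 ± 2.46 FPKM in NIKflox, 1.40 times as high in NIKhKO, and the log2 fold change was 0.55 (SE 0.11). Leaving out 1 library at a time kept it between 0.48 and 0.60, and it was 0.49 without NIKflox 2 and 4. The gene lies on chromosome 2 at 118861954 to 118882909 (plus strand), and the annotation has no other gene overlapping it.

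Mccc1 and Mccc2 encode the alpha subunit, which carries biotin, and the beta subunit of methylcrotonyl-CoA carboxylase, the enzyme after Ivd. Mccc1, on chromosome 3 at 35959312 to 36000678 (minus strand), was at 3.78, 3.23, 3.19, 2.45 and 2.76 FPKM in NIKhKO, against 2.1, 2.25, 2.84, 2.61 and 2.65 FPKM in NIKflox. NIKhKO 1, 2 and 3 lay above every NIKflox library, while NIKhKO 4 and 5 lay among them. The means were 3.08 ± 0.506 FPKM in NIKhKO and 2.49 ± 0.308 FPKM in NIKflox, with a log2 fold change of 0.37 (SE 0.12); Gm15952, which overlaps it on the other strand, had a mean of 1.07 FPKM. Mccc2, on chromosome 13 at 99948530 to 100015618 (minus strand), was at 22.9, 21, 22.2, 23.2 and 23.9 FPKM in NIKhKO, against 20.9, 17.8, 22.7, 20.2 and 19.8 FPKM in NIKflox. It was the steadiest member, with a coefficient of variation within genotype of 6.94%, lower than in all but 2.89% of the genes tested. Its means were 22.7 ± 1.10 FPKM in NIKhKO and 20.3 ± 1.79 FPKM in NIKflox, and the log2 fold change was 0.23 (SE 0.09).

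In the valine branch, Hibadh encodes 3-hydroxyisobutyrate dehydrogenase. It was at 39.0, 40.2, 35.1, 31.1 and 39.6 FPKM in NIKhKO, against 26.9, 26.2, 34.6, 30.6 and 32.8 FPKM in NIKflox libraries. Only NIKhKO 4 lay within the NIKflox range, and the other 4 NIKhKO libraries were above it. The means were 37.0 ± 3.84 FPKM in NIKhKO and 30.2 ± 3.64 FPKM in NIKflox, with a log2 fold change of 0.36 (SE 0.10). It lies on chromosome 6 at 52546228 to 52640389 (minus strand).

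Valine and isoleucine both end in propionyl-CoA, which propionyl-CoA carboxylase takes on to methylmalonyl-CoA, with a biotin-carrying alpha subunit (Pcca) and a beta subunit (Pccb). Pcca, on chromosome 14 at 122534324 to 122891100 (plus strand), was at 14.5, 13.8, 14.8, 12.8 and 14.2 FPKM in NIKhKO, against 11.2, 12.5, 15.1, 14.5 and 13.0 FPKM in NIKflox. Its NIKhKO libraries lay wholly inside the NIKflox range, at 14 ± 0.797 FPKM in NIKhKO and 13.3 ± 1.58 FPKM in NIKflox. It overlaps Ggact, on the other strand, which had a mean of 6.15 FPKM. Pccb, on chromosome 9 at 100982032 to 101034898 (minus strand), was at 65, 60.7, 53.8, 55.2 and 52.1 FPKM in NIKhKO, against 46.9, 45.2, 56.2, 58.7 and 55.7 FPKM in NIKflox. NIKhKO 1 and 2 were above all NIKflox libraries and the other 3 NIKhKO libraries were among them. The means were 57.3 ± 5.35 FPKM in NIKhKO and 52.5 ± 6.05 FPKM in NIKflox, with a log2 fold change of 0.19 (SE 0.09).

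**Figure D2:**
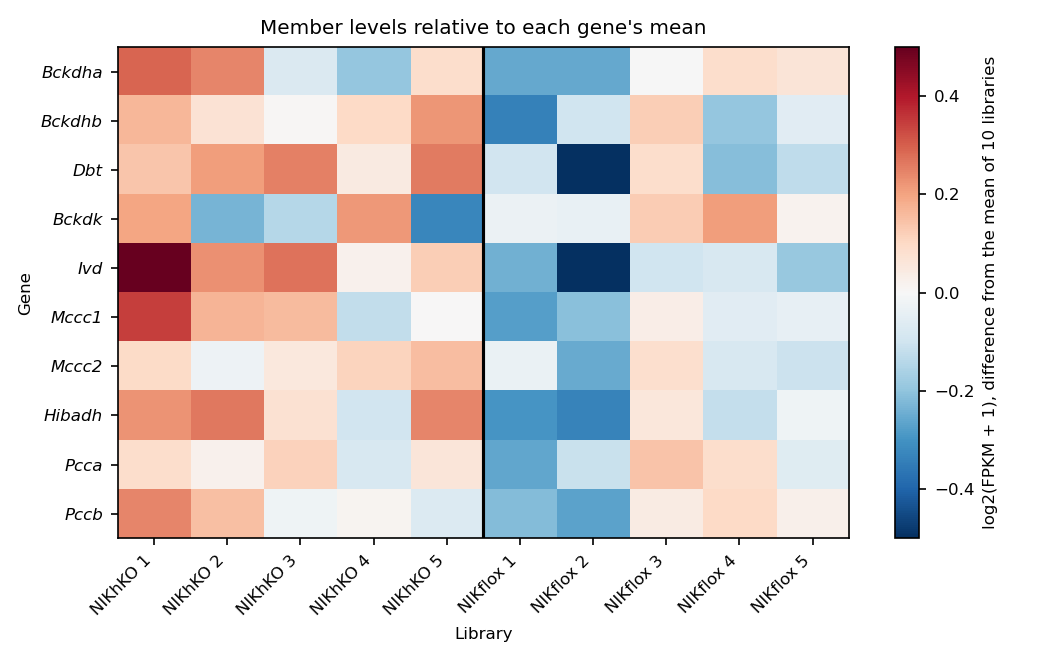
Difference of log2(FPKM + 1) from each gene's mean over the 10 libraries, for the 10 genes (rows) in the 5 NIKhKO and 5 NIKflox libraries (columns). NIKflox 1 and 2 hold the lowest value of 9 of the 10 genes, and NIKhKO 1 the highest of 4.

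The libraries of a genotype did not carry the difference evenly. NIKflox 2 was the lowest of all 10 libraries for 5 members and NIKflox 1 for 4, and NIKhKO 5 was lowest for Bckdk. The mean of the members, as log2(FPKM + 1) centred over the 10 libraries, was 0.23, 0.11, 0.07, 0.00 and 0.08 in NIKhKO libraries 1 to 5, against -0.20, -0.27, 0.06, -0.03 and -0.05 in NIKflox libraries 1 to 5. NIKhKO 4, the lowest of its genotype for 6 members, was thus near NIKflox 4 and below NIKflox 3, which was the highest of its genotype for 6. Leaving out any 1 library gave member medians of 0.23 to 0.31 on the log2 scale, and leaving out NIKflox 2 and 4 gave 0.22. Summed over the members, expression was 364 ± 28.7 FPKM in NIKhKO and 317 ± 31.3 FPKM in NIKflox (SD, n = 5 each).

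Signs of RNA composition also split the libraries. Nuclear ribosomal RNA took 0.225%, 0.322%, 1.48%, 1.19% and 1.9% of counts in NIKhKO libraries 1 to 5, against 0.848%, 0.390%, 0.214%, 0.288% and 0.257% in NIKflox libraries 1 to 5. Within NIKflox, libraries 1 and 2, with the highest shares of that genotype, held the lowest value of every member (NIKflox 1 for 4 members and NIKflox 2 for 6). The share of NIKflox 2, 0.390%, was however close to those of NIKflox 4 (0.288%) and NIKhKO 2 (0.322%). NIKflox 2 was also a library with heart and adipose transcripts (marker sums of 14.1 and 13.7 FPKM). Within NIKhKO the members differed. The libraries with the low shares, 1 and 2, held the highest value of 5 members, Bckdha, Pccb, Ivd, Mccc1 and Hibadh, while NIKhKO 5, with the highest share, held that of Bckdhb, Dbt and Mccc2 (72.3, 22.3 and 23.9 FPKM). NIKhKO 3 was highest for Pcca and NIKhKO 4 for Bckdk. Mitochondrial transcripts followed a like split, at 8.76%, 8.64%, 12.2%, 12.7% and 11.6% in NIKhKO against 10.5%, 11.1%, 9.24%, 7.15% and 8.90% in NIKflox. The part of RNA composition in the members' levels was not tested.

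**Figure D3:**
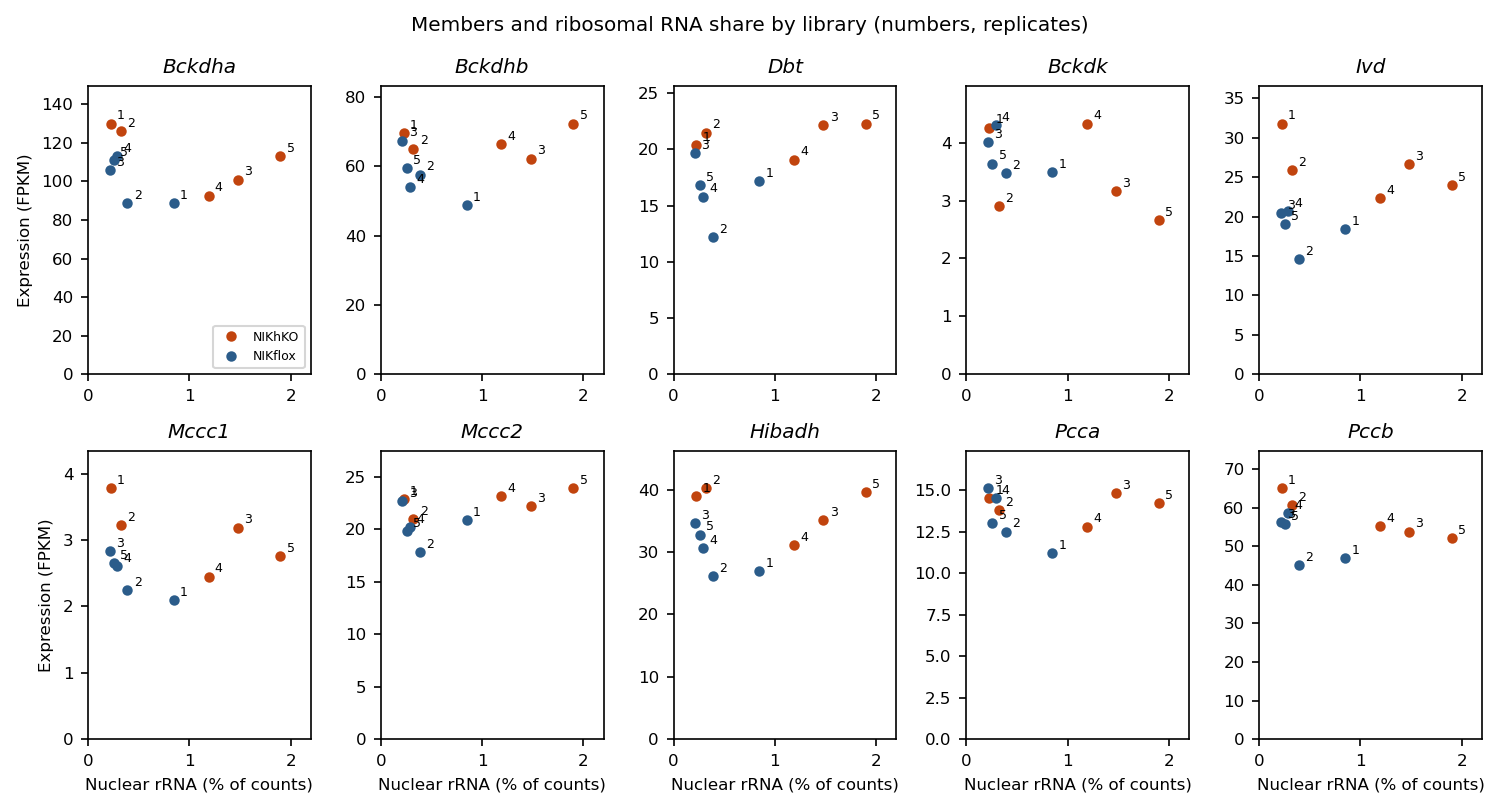
Level of each of the 10 genes (FPKM) against the share of counts from nuclear ribosomal RNA (%) in each library, numbered by replicate, NIKhKO and NIKflox in separate colours. NIKflox 1 and 2, at 0.848% and 0.390%, hold the lowest NIKflox value of every gene, while the highest NIKhKO value lies in NIKhKO 1 or 2 for 5 genes and in NIKhKO 5, at 1.9%, for Bckdhb, Dbt and Mccc2.

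Within a genotype, most members varied together. Over the 10 libraries, with log2(FPKM + 1) centred within genotype, 43 of the 45 pairs of members had a positive Pearson r, with a median of 0.401, and of 0.581 for the 36 pairs without Bckdk. Bckdk is the member least like the others in these same libraries, so leaving it out raised the median. Pairs among 4859 genes with a mean of at least 5 FPKM had a median r of 0.0788, and 56.4% were positive. Bckdk (3.62 FPKM) and Mccc1 (2.79 FPKM) are under that limit, so the member pairs and these pairs are not alike in level. All these pairs share their libraries and the composition described above. Against the mean of the other 9 members, Pccb (r = 0.849), Ivd (0.831), Mccc1 (0.813), Hibadh (0.797) and Bckdha (0.759) were closest. Bckdhb (0.439), Mccc2 (0.443) and Dbt (0.518) were looser and Bckdk stood lowest at 0.180. The 5 genes outside the pathway whose levels within genotype were most like the members' mean were Aldh1a7 (r = 0.971 over 10 libraries), Atp7b (0.965), Uqcrc1 (0.954), Aldh5a1 (0.947) and Sult2a5 (0.945), against a median of 0.245 over the 4859 candidates. Aldh5a1 encodes succinate semialdehyde dehydrogenase, Uqcrc1 a core protein of respiratory complex III and Atp7b a copper transporter.

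By FPKM the members spanned a wide range of levels. Over the 10 libraries the order was Bckdha (mean 107 FPKM), Bckdhb (62.3), Pccb (54.9), Hibadh (33.6), Ivd (22.4), Mccc2 (21.5), Dbt (18.7), Pcca (13.6), Bckdk (3.62) and Mccc1 (2.79). Bckdha was above Bckdhb, Pccb above Hibadh, and Pcca above Bckdk in every library with ranges that did not overlap, and Hibadh was above Ivd in every library, with overlapping ranges. Neighbours that changed places between libraries were Bckdhb and Pccb (Bckdhb higher in 9 of 10 libraries), Ivd and Mccc2 (Ivd higher in 5), Mccc2 and Dbt (8), Dbt and Pcca (9), and Bckdk and Mccc1 (7).

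This order depends on the length used. For 98.5% of 6699 genes with over 500 counts in every library, the deposited count divided by FPKM and by the library's total was, within 1%, the same multiple of the merged length of all exons that GENCODE M21 annotates for the gene, retained introns included. Hibadh has 10.2 kb of merged exons against 1.82 kb in its longest coding transcript, and Mccc1 11.0 kb against 2.46 kb, while Bckdha has 1.9 kb by both. With the counts divided by the longest coding transcript's length and the library's total, on a scale close to FPKM, Hibadh became the highest member, at 226 ± 24.9 in NIKhKO and 185 ± 22.5 in NIKflox, ahead of Bckdha at 123 ± 18.1 in NIKhKO and 111 ± 13.6 in NIKflox. Mccc1 was then at 15.0 ± 2.50 in NIKhKO and 12.2 ± 1.53 in NIKflox, above Bckdk at 4.11 ± 0.911 in NIKhKO and 4.51 ± 0.460 in NIKflox. A length per gene cancels in any comparison of the same gene, or the same ratio of genes, between libraries. This alternative was chosen after seeing the data, and which of the lengths is nearer to the transcripts present was not tested.

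Ratios of FPKM within a library show which members kept step, and are likewise descriptions. Ivd over Bckdha was 0.234 ± 0.0245 in NIKhKO and 0.184 ± 0.0170 in NIKflox, where NIKhKO 2 at 0.205 was just under NIKflox 1 at 0.207. Mccc1 over Ivd, the next enzyme over the one before it, was 0.118 ± 0.00543 in NIKhKO and 0.135 ± 0.0151 in NIKflox, with NIKflox 1 (0.114) inside the NIKhKO range. Dld over Dbt was 1.37 ± 0.0933 in NIKhKO and 1.79 ± 0.382 in NIKflox, and the highest NIKflox values, 2.36 and 2, were those of the libraries with heart transcripts. The ratio of subunits within an enzyme overlapped between the genotypes: Bckdha over Bckdhb was 1.68 ± 0.222 in NIKhKO and 1.78 ± 0.226 in NIKflox, and Pccb over Pcca 4.10 ± 0.420 in NIKhKO and 3.97 ± 0.300 in NIKflox. Mccc2 over Mccc1 was 7.54 ± 1.47 in NIKhKO and 8.21 ± 1 in NIKflox. Bckdha over its kinase Bckdk ran from 21.4 to 43.6 among NIKhKO libraries and from 25.4 to 30.5 among NIKflox libraries, and the phosphatase over the kinase, Ppm1k over Bckdk, was 3.11 ± 1.19 in NIKhKO and 2.16 ± 0.756 in NIKflox.

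**Figure D4:**
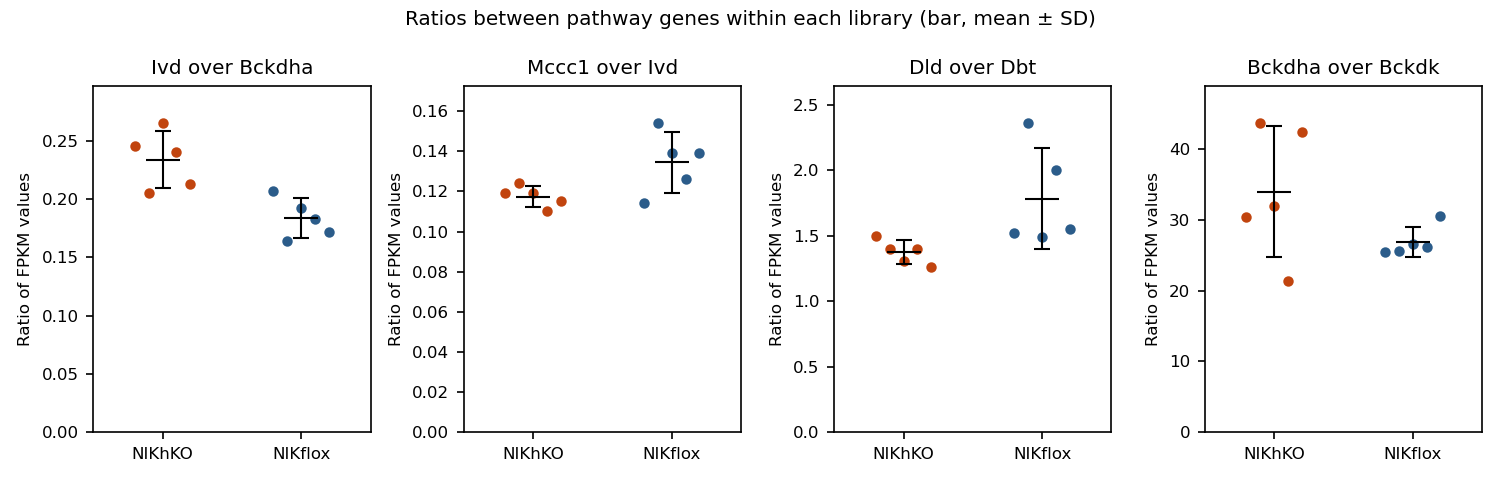
Ratios of FPKM values between pathway genes in each library, NIKhKO left and NIKflox right in each panel; points are libraries 1 to 5 from left to right and bars the mean ± SD. Ivd over Bckdha is mostly higher in NIKhKO (0.234 against 0.184 on average), and Bckdha over Bckdk runs from 21.4 to 43.6 in NIKhKO and from 25.4 to 30.5 in NIKflox.

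The remaining steps of the pathway gave no call between the genotypes. Of 16 such genes, 15 were tested and 0 passed (edgeR's quasi-likelihood test, adjusted over all genes tested). An unadjusted p below 0.05 was found for 6, against 1273 of all 12731 genes tested (10%). These genes belong to the pathway picked on this same contrast and were listed with earlier results known, so the 6 are not separate support. DESeq2 called 1, Auh, and over the whole table it called 207 of the 12456 genes it gave an adjusted p, 1.66%, against 3 in edgeR. Limma on log2(FPKM + 1) called 0. The median log2 fold change of the 15 was 0.21, with 10 positive and 5 negative. Auh, methylglutaconyl-CoA hydratase, which follows methylcrotonyl-CoA carboxylase in leucine breakdown, was at 4.08, 3.98, 3.62, 3.41 and 3.74 FPKM in NIKhKO, against 2.76, 3.28, 3.31, 3.11 and 3.39 FPKM in NIKflox. Every NIKhKO library was above every NIKflox library, and the log2 fold change was 0.31 (SE 0.08, edgeR adjusted p = 0.26; DESeq2 log2 fold change 0.32, adjusted p = 0.036). Auh was thus called by DESeq2 alone of these tools.

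In the valine branch, Hibch, which releases 3-hydroxyisobutyrate for Hibadh, averaged 10.4 ± 0.645 FPKM in NIKhKO and 9.39 ± 1.27 FPKM in NIKflox (log2 fold change 0.21, SE 0.09, edgeR adjusted p = 0.47). Aldh6a1, methylmalonate semialdehyde dehydrogenase, which acts after Hibadh, averaged 64.8 ± 6.20 FPKM in NIKhKO and 55.5 ± 3.98 FPKM in NIKflox (log2 fold change 0.29, SE 0.10, edgeR adjusted p = 0.37). All 5 NIKhKO libraries were above the NIKflox median for Aldh6a1, and 4 of 5 for Hibch. Past propionyl-CoA carboxylase, Mcee, the methylmalonyl-CoA epimerase, averaged 39.2 ± 5.33 FPKM in NIKhKO and 33.7 ± 3.28 FPKM in NIKflox (log2 fold change 0.28, SE 0.10, edgeR adjusted p = 0.39). Mmut, the mutase that makes succinyl-CoA, averaged 28.4 ± 3.13 FPKM in NIKhKO and 25.0 ± 3.13 FPKM in NIKflox (log2 fold change 0.25, SE 0.10, edgeR adjusted p = 0.44). At the entry to the pathway the log2 fold changes were near 0. Bcat2, the mitochondrial transaminase, averaged 6.93 ± 1.74 FPKM in NIKhKO and 7.53 ± 1.65 FPKM in NIKflox (log2 fold change -0.06, SE 0.17, edgeR adjusted p = 0.96), and Slc25a44, the mitochondrial carrier of branched-chain amino acids, 17.9 ± 1.88 FPKM in NIKhKO and 19.7 ± 4.64 FPKM in NIKflox (-0.06, SE 0.14, edgeR adjusted p = 0.94). The sign of Bcat2 turned without NIKhKO 4 (0.03), NIKflox 3 (0.00) or NIKflox 4 (0.03), and that of Slc25a44 without NIKflox 4 (0.05). Bcat1, the cytosolic transaminase, had at most 6 counts in a library and was not tested.

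**Figure D5:**
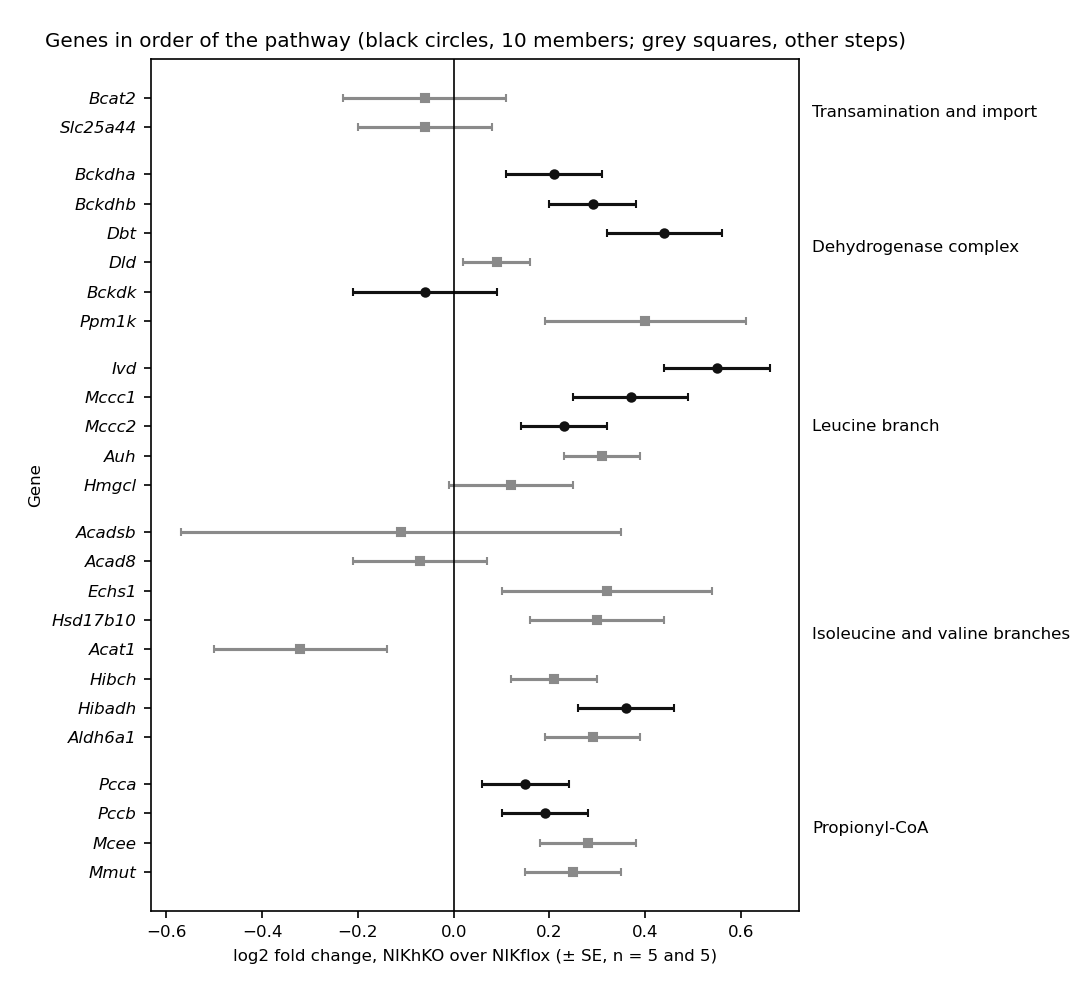
Log2 fold change of NIKhKO over NIKflox (± SE, n = 5 each) of pathway genes in the order of the pathway, with the 10 members as black circles and other genes as grey squares. Ivd (0.55) and Dbt (0.44) lie farthest to the right, and Bckdk (-0.06), Bcat2 (-0.06) and Slc25a44 (-0.06) beside 0.

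The genes that serve these enzymes gave no call either. Of 12 genes for biotin, lipoate, cobalamin and electron transfer, all 12 were tested and 0 passed in edgeR, 0 in DESeq2 and 0 in limma. Over all genes, edgeR called 0.0236%, DESeq2 1.66% of those it gave an adjusted p, and limma 0. With shares this low, 0 calls in a short list says little about its genes. An unadjusted p below 0.05 in edgeR was found for 1, against 10% of all genes tested. Of the 12, 7 were positive, 5 negative and the median log2 fold change was 0.12. Lipt1, the lipoyltransferase that lipoylates Dbt and its like, averaged 3.34 ± 0.462 FPKM in NIKhKO and 2.50 ± 0.812 FPKM in NIKflox, with a log2 fold change of 0.49 (SE 0.20, edgeR adjusted p = 0.45). Mmab, which makes the cobalamin cofactor of Mmut, averaged 7.97 ± 0.950 FPKM in NIKhKO and 7.09 ± 0.844 FPKM in NIKflox (log2 fold change 0.23, SE 0.11, edgeR adjusted p = 0.53). Etfa, a subunit of the electron acceptor of Ivd, averaged 177 ± 24.0 FPKM in NIKhKO and 165 ± 7.72 FPKM in NIKflox (log2 fold change 0.16, SE 0.08, edgeR adjusted p = 0.58).

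Of 6 further genes, namely 5 for uptake at the plasma membrane and the regulator Klf15, 5 were tested. Of these, 0 passed in edgeR, 0 in DESeq2 and 0 in limma, against 0.0236%, 1.66% and 0 over all genes. An unadjusted p below 0.05 in edgeR was found for 0, against 10% of all genes tested. Of the 5, 2 were positive and 3 negative. Slc7a5, the light chain of the leucine transporter, averaged 0.979 ± 0.407 FPKM in NIKhKO and 1.35 ± 0.355 FPKM in NIKflox (log2 fold change -0.40, SE 0.27, edgeR adjusted p = 0.69). Slc3a2, its heavy chain, averaged 12.7 ± 1.73 FPKM in NIKhKO and 15.0 ± 1.83 FPKM in NIKflox (log2 fold change -0.19, SE 0.14, edgeR adjusted p = 0.72). Klf15, a transcription factor known to drive amino acid breakdown genes in mouse liver and muscle, averaged 42.6 ± 5.68 FPKM in NIKhKO and 37.2 ± 5.81 FPKM in NIKflox (log2 fold change 0.26, SE 0.13, edgeR adjusted p = 0.55).

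Related complexes were a comparison list: the pyruvate and oxoglutarate dehydrogenase complexes, which share Dld and lipoate with the branched-chain complex, and other biotin carboxylases. The list also held kinase and phosphatase genes that regulate the pyruvate dehydrogenase complex. Of 16 genes 14 were tested and 0 passed in edgeR, 0 in DESeq2 and 0 in limma, against 0.0236%, 1.66% and 0 over all genes. An unadjusted p below 0.05 in edgeR was found for 3, against 10% of all genes tested. Their log2 fold changes were positive in 5 and negative in 9, with a median of -0.03, beside -0.01 for all genes tested. Pdk2, a pyruvate dehydrogenase kinase, averaged 39.0 ± 3 FPKM in NIKhKO and 31.5 ± 5.81 FPKM in NIKflox (log2 fold change 0.38, SE 0.12, edgeR adjusted p = 0.33). Acaca, the acetyl-CoA carboxylase of fatty acid synthesis, averaged 5.46 ± 0.579 FPKM in NIKhKO and 7.17 ± 1.39 FPKM in NIKflox (log2 fold change -0.33, SE 0.13, edgeR adjusted p = 0.44). Dlst, the succinyltransferase core of the oxoglutarate dehydrogenase complex and the counterpart of Dbt there, was at 8.03, 5.63, 6.69, 16.4 and 19.1 FPKM in NIKhKO, against 5.15, 6.91, 5.28, 7.44 and 6.43 FPKM in NIKflox. NIKhKO 4 and 5 stood far above the other 8 libraries, and the log2 fold change of 0.91 (SE 0.33) did not pass (edgeR adjusted p = 0.37).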

How the data were processed

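Poly(A) RNA of 10 mouse livers was sequenced, per the labels' protocols. Tools listed in the submitters' processing notes are HISAT2 2.0.4, cutadapt 1.9, edgeR (no version) and StringTie 1.3.4d. The build listed there is hg38, which is human, while the identifiers are mouse; 9 of the 10 members have the start and end of GENCODE M21 on GRCm38, all but Mccc2. The deposited table gives FPKM values per the file headers, and estimated counts deposited as whole numbers, which are not normalized. The members and lists were chosen with earlier results of these data known.

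Genes with a mean of at least 0.5 FPKM, and Map3k14 at 0.494, were tested with edgeR 4.0.16 (R 4.3.3; TMM scaling, quasi-likelihood, two-sided, Benjamini-Hochberg over all 12731 genes, called at an adjusted p below 0.05). Log2 fold changes are NIKhKO over NIKflox, on counts unless FPKM is named; the SE is the log2 fold change divided by the root of F. Scaling by FPKM alone moved the median of all genes to -0.05 with a pseudocount of 1 and -0.07 with 0.1. Deposited counts have no molecular identifiers, so totals overstate independent molecules. Named genes were the members, Map3k14, 8 fixed genes (Bcat2, Dld, Ppm1k, Slc25a44, Hibch, Aldh6a1, Mmut and Klf15), the 3 with the smallest p in each list, and the 5 most like the members' mean. The fit was tested on simulated counts. Alternatives were RLE scaling, DESeq2 1.42.0, limma 3.58.1 on log2(FPKM + 1) or log2(FPKM + 0.1), no filter, counts divided by 4, the replicate number as a block, and each library left out; leaving out NIKflox 2 and 4, and the coding transcript length, were added after seeing the data.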

Additional observations from a re-analysis of the deposited data

Results flagged for a closer look

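In groups of 5 libraries, a value was picked out when its gap to the nearest other value, divided by the range, exceeded Dixon's 95% critical value of 0.71. The 58 groups examined were those of 29 genes, the named genes listed above without the 5 most like the members' mean. Other genes, such as Acadsb and Slc43a2 below, were not examined. Of the 58 groups, 3 held such a value, and chance picks out about 1 in 20 groups. No member did. Mcee, the methylmalonyl-CoA epimerase gene, was at 30.0 FPKM in NIKhKO 3, with the other NIKhKO libraries at 39.7 to 43.1 FPKM. Mmab, the cobalamin adenosyltransferase gene, was at 6.29 FPKM in the same library, with the others at 8.23 to 8.62 FPKM. Both thus stood low in NIKhKO 3, which had a ribosomal RNA share of 1.48%. NIKhKO 4 and 5, with shares of 1.19% and 1.9%, were at 40.5 and 39.7 FPKM for Mcee and at 8.23 and 8.62 FPKM for Mmab. Map3k14, the targeted gene, was at 0.899 FPKM in NIKflox 4, with the other NIKflox libraries at 0.483 to 0.585 FPKM, and without that library its log2 fold change was -0.42. NIKflox 4 is also the library with the highest sum of muscle and heart markers (26.1 FPKM). The cause of each was not tested.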

How the results depend on the processing

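The member median (0.26) stayed between 0.19 and 0.31 on the log2 scale under all 18 alternatives, and 9 or 10 members were positive. The members were picked on this contrast in these same libraries, so nothing is read from that steadiness. The number of genes called over the whole table, 3 in the fit reported, did not hold: it was 207 with DESeq2 (126 higher and 81 lower in NIKhKO), 0 with limma at either pseudocount, 1 without NIKflox 2 and 4, and 0 to 24 with 1 library left out. It was 24 without NIKhKO 4, 3 without NIKflox 3, and 0 without any other single library. DESeq2 also called 1 of the other pathway genes, Auh (log2 fold change 0.32, adjusted p = 0.036). No other alternative called any. With 1 library left out, Bcat2 ranged from -0.19 to 0.03 and Slc25a44 from -0.13 to 0.05. Bcat2 reversed to 0.03 without NIKhKO 4, 0.00 without NIKflox 3 and 0.03 without NIKflox 4, and Slc25a44 to 0.05 without NIKflox 4 and 0.08 without NIKflox 2 and 4. The cause was not tested.

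The labels number the libraries 1 to 5 in both genotypes. Deviations from the genotype means correlated at -0.125, -0.186, 0.0197, -0.396 and -0.0297 between libraries of the same number. Between libraries of different numbers they ran from -0.283 to 0.363. These values show no pairing by number but cannot exclude one. With the replicate number as a block, 2 genes were called and 0 of the other pathway genes, and the member median was 0.26. Every member had at least 667 estimated counts in each library, and gene order by level changed with the length used, as reported above.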

Other observations

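The following genes were chosen after their values were seen. The table pairs 55 genes with the KEGG pathway of valine, leucine and isoleucine degradation, 9 of them members. Of the 46 others, 37 were tested and 0 passed (edgeR's quasi-likelihood test), against 0.0236% of all genes tested. An unadjusted p below 0.05 was found for 14, against 1273 of all 12731 genes tested (10%). This pathway was picked on the same contrast, so the 14 are given as a description. Of the 37, 13 are also among the other pathway genes reported above, as are 6 of the 14 (Auh, Aldh6a1, Mcee, Mmut, Hibch and Hsd17b10). Of the 37, 23 were positive and 14 negative, with a median log2 fold change of 0.12. Abat, GABA transaminase, which also takes a valine intermediate, was at 49.6, 39.3, 54.6, 44.2 and 42.7 FPKM in NIKhKO libraries 1 to 5, against 32.4, 25.9, 38.2, 35.6 and 36.1 FPKM in NIKflox libraries 1 to 5. Every NIKhKO library was above every NIKflox library, with a log2 fold change of 0.52 (SE 0.13, edgeR adjusted p = 0.23). Aox1, an aldehyde oxidase, went the other way, at 4.54 ± 0.322 FPKM in NIKhKO and 6.86 ± 1.37 FPKM in NIKflox (SD, n = 5 each). Every NIKhKO library was below every NIKflox library, with a log2 fold change of -0.52 (SE 0.12, edgeR adjusted p = 0.23).

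Some pathway genes split into separate levels across both genotypes. Acadsb, the short/branched-chain acyl-CoA dehydrogenase of isoleucine breakdown, was at 4.51, 3.82, 5.25, 13.0 and 4.1 FPKM in NIKhKO, against 3.69, 3.37, 12.7, 11.5 and 4.11 FPKM in NIKflox. NIKhKO 4, NIKflox 3 and NIKflox 4 were thus at 11.5 FPKM or more and the other 7 libraries at or under 5.25 FPKM. Slc43a2, an amino acid transporter gene, was at 0.131, 0.132, 1.22, 1.09 and 0.121 FPKM in NIKhKO, against 0.158, 0.112, 1.18, 0.233 and 0.187 FPKM in NIKflox. NIKhKO 3, NIKhKO 4 and NIKflox 3 were the high libraries there. Acat1, the mitochondrial thiolase, reached 204 FPKM in NIKflox 2, against 97.6 to 139 FPKM in the other NIKflox libraries. No explanation of these levels was tested.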
